A study of Mus musculus with 6 samples.

Results

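The genes described here were 10 amino acid transporter genes of the plasma membrane, chosen by their symbols (Slc3a2, Slc7a5, Slc7a6, Slc7a7, Slc7a8, Slc7a1, Slc1a4, Slc1a5, Slc38a1 and Slc38a2) out of 18182 genes listed in the files. Their transcripts were measured by RNA sequencing in cells of the mouse lung cancer line LLC (Lewis lung carcinoma), which carried red fluorescent protein (RFP) and were sorted by flow cytometry from subcutaneous tumours of wild type C57BL/6 mice. One group of 3 libraries came from mice that received LLC-RFP alone (LLC alone), and the other group of 3 libraries from mice that received LLC-RFP together with bone marrow-derived mesenchymal stem cells, BMSCs (LLC with BMSCs). Both groups were from primary cancer sites, and the methods give an age for the mice of the LLC-luciferase allografts but none for those of these RFP tumours. The comparison asked how transcript levels in the sorted cancer cells differed when BMSCs had been co-injected. LLC is 1 line in 1 strain, and the source label of the co-injected group names mesenchymal stem cells beside the carcinoma cells. Nothing in the labels says that libraries of a group came from separate animals, so that p-values measure only the spread between these libraries, which may be technical.

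Cells take up amino acids through families of carriers that differ in substrate and in driving force. The heteromeric transporters pair a heavy chain, Slc3a2, which brings the complex to the cell surface, with one of several SLC7 light chains, which form the transport path and exchange large neutral or cationic amino acids. The SLC38 carriers and the neutral SLC1 carriers use the sodium gradient or exchange to move glutamine, alanine, serine and related amino acids, and Slc7a1 carries arginine and lysine on its own. Transcription of many of these genes is known to respond to the factor ATF4, which is made when amino acids run short, and amino acid supply is read inside the cell by the kinase complex mTORC1.

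The libraries held between 33476347 and 46189113 estimated fragments on genes. Levels are given as FPKM (fragments relative to transcript length and to the size of the library), and differences as log2 fold changes of LLC with BMSCs over LLC alone from edgeR's quasi-likelihood test with Benjamini-Hochberg adjustment over 13353 genes. A gene is called higher or lower where the adjusted p was under 0.05. The keratin Krt8 stood between 90.3 and 113.28 FPKM in the 6 libraries, while the epithelial markers Epcam and Cdh1 were at or below 0.04 FPKM in each of them. Krt8 was the only 1 of 6 epithelial markers at or above 1 FPKM in every library, with Krt18 at or below 0.69 and Krt19 and Krt7 at or below 0.05 FPKM. Both tested epithelial markers, Krt8 and Krt18, were called higher in LLC with BMSCs, by 0.19 and 2.91 on the log2 scale. Krt18 passed the filter on low counts only through the libraries with BMSCs and so had to be higher to be tested. Markers of other cells moved with the groups. The summed FPKM of 12 markers of mesenchymal stem cells and fibroblasts was 47.8 to 58.0 in LLC alone and 126 to 130 in LLC with BMSCs, most of it from Col3a1. All 8 tested genes of that list were called higher, of which 3 (Col1a1, Dcn and Lum) passed the filter on low counts only through the libraries with BMSCs and so had to be higher to be tested. The neutrophil markers summed to 0.29 to 0.63 against 43.3 to 52.0 FPKM, with BMSCs mostly from S100a8 and S100a9. Ly6g was at or below 0.11 FPKM in every library and was not tested. Of the 7 tested, all were called higher, and 6 passed the filter only through the libraries with BMSCs. The macrophage list summed to 17.0 to 20.5 against 20.3 to 21.9 FPKM, most of it from Cd14, Cd68 and Lyz2. Of its 8 tested genes 6 were called higher and 1 lower, and 4 (Adgre1, Itgam, Mrc1 and Ptprc) passed the filter only through the libraries with BMSCs. The lower gene was Cd68, with a mean of 5.55 FPKM in LLC alone and 3.03 FPKM with BMSCs, and Cd14 was not called. Itgam was at 0, 0 and 0.02 FPKM in LLC alone and at 1.17, 1.14 and 1.19 FPKM with BMSCs, whereas C1qa was at or below 0.07 FPKM in all libraries. Endothelial markers summed to 10.3 to 13.2 against 10.4 to 10.6 FPKM, most of it from Egfl7. The other 7 endothelial markers were under 1 FPKM in every library. Of the 3 tested, 0 were called by edgeR, and the lymphocyte list stayed under 1 FPKM. The part of these other cells in the results on the transporters was not tested. In such bulk samples fewer cells of a type and less RNA per cell cannot be told apart.

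Of the 10 transporter genes, 8 were called lower and 1 higher in LLC with BMSCs. By the same rule 62.9% of all tested genes were called, 31.3% lower and 31.5% higher. The strongest falls were of Slc1a4, a carrier of alanine, serine and cysteine, of the heavy chain Slc3a2, and of the arginine and lysine carrier Slc7a1, each with a log2 fold change below -1. The leucine carrier Slc7a5 and the glutamine carrier Slc38a1 fell less, and the glutamine carriers Slc1a5 and Slc38a2 fell by 0.24 and 0.22 on the log2 scale. Slc7a6, a further light chain, was not called, and Slc7a8 was the one gene called higher, at a very low level. The median log2 fold change of the 10 genes was -0.63, against 0.012 over all genes tested.

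In FPKM, the libraries of one group lay entirely to one side of the other for all 10 genes, 8 of them lower and 2 higher in LLC with BMSCs. Such a separation was found for 70.6% of all tested genes, 33.7% in the lower and 37.0% in the higher direction. A stricter rule, an adjusted p under 0.001 with a log2 fold change of at least 1 in size, was met by 3 of the 10 genes, all lower, against 5.41% of all tested genes in the lower and 6.81% in the higher direction. In 8 of the 10 genes the level was at least 10 FPKM in every library. All 10 genes passed the filter on low counts, and 9 of them did so in every library of LLC alone. The exception was Slc7a8, which passed only through the libraries with BMSCs. Without Slc7a8 and Slc7a7, the genes of low level, 7 of 8 were called lower, with a median of -0.76. That selection was made after the values were seen.

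**Figure D1:**
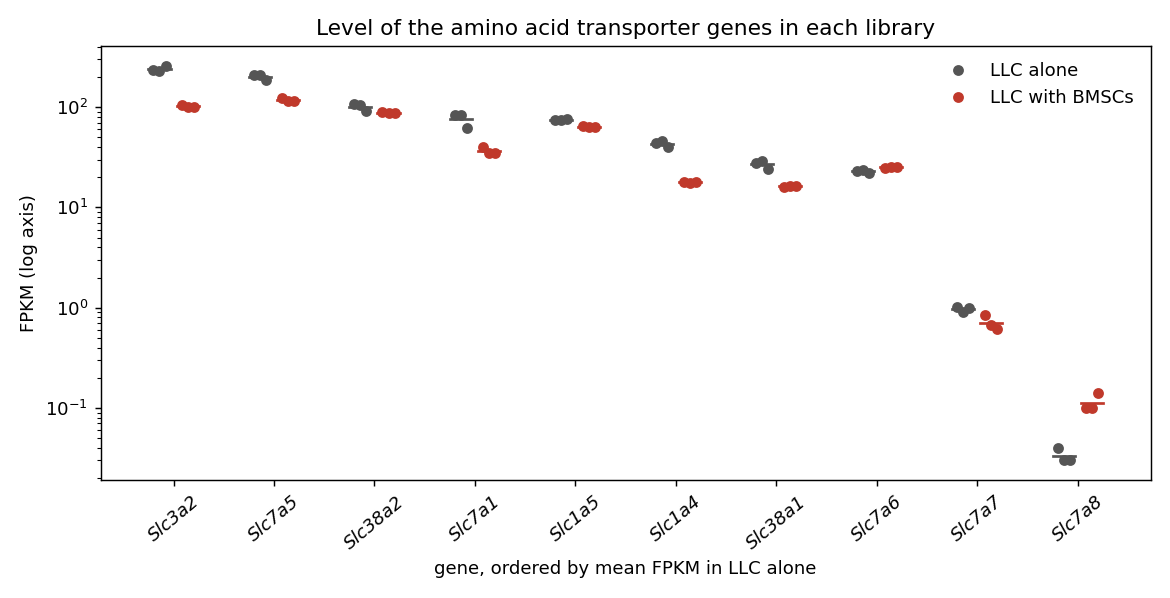
FPKM (log axis) of the 10 transporter genes in each of 3 libraries of LLC alone (grey) and 3 of LLC with BMSCs (red), with short lines at the group means, ordered by the mean in LLC alone. The groups are separate for each gene, 8 genes lie lower in LLC with BMSCs, and Slc7a7 and Slc7a8 lie under 2 FPKM in every library.

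Promoter sequences from RefSeq (mouse build GRCm38.p6) were matched by symbol for 7 of the 10 genes, and Slc7a5, Slc1a5 and Slc38a1 had no entry. They are shown for the 3 genes that met the stricter rule and for Slc38a2, the called gene with the smallest fall. Large falls can so be set beside a small one. Each run holds 250 bases before the start site and 20 bases from it, read 5′ to 3′ on the strand of the gene, with Slc1a4 at chr11:20332694-20332963, Slc3a2 at chr19:8713878-8714147, Slc7a1 at chr5:148399885-148400154 and Slc38a2 at chr15:96699709-96699978, all on the minus strand. Capitals mark a match to the motif searched.
Slc1a4: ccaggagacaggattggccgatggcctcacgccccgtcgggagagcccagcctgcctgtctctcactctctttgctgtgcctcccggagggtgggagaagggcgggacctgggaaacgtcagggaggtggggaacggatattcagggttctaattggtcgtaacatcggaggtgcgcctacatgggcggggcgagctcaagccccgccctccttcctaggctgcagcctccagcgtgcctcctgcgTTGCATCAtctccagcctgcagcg
Slc3a2: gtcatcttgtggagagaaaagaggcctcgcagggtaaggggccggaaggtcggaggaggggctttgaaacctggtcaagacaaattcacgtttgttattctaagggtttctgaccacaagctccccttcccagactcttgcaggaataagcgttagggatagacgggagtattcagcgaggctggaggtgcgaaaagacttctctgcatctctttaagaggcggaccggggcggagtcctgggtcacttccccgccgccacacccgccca
Slc7a1: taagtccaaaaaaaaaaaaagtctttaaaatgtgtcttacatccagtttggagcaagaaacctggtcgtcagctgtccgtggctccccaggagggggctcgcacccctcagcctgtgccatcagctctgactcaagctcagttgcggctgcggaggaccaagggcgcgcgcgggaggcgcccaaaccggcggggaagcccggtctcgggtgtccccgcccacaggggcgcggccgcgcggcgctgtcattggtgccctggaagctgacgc
Slc38a2: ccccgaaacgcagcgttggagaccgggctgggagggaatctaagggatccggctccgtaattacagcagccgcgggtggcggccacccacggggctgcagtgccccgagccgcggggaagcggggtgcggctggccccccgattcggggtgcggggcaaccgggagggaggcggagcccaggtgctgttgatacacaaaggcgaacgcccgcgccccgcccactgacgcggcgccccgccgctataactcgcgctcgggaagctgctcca
The motif searched was TGATGNAA, a form of the element bound by ATF4 with CEBP partners, on both strands of windows of 300 bases, from 250 before to 50 after the start site. It was found in 3.97% of the 32851 promoter windows in the table. The 7 matched genes have 13 windows, since a gene can have several start sites, and 2 of the genes held the motif in at least 1 window, a count by gene that cannot be set directly against the share of windows. In Slc1a4 the match lay on the opposite strand, with its first base 4 bases before the start site, and in Slc7a7 matches lay in the windows of 2 of its start sites. Those 2 windows overlap, and the match TGATGCAA found in both is the same stretch of bases. CACGTG, the E-box, was found in 7.15% of all windows and in none of the 7 genes. The motifs share no letters in these windows, since the second had no match. The windows of Slc3a2, Slc7a1 and Slc38a2 hold neither set of letters, and the windows do not cover introns or distant elements. Their base composition differed, with 64.4% G and C in the run of Slc1a4, 55.9% in Slc3a2, 63.0% in Slc7a1 and 71.9% in Slc38a2.

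Slc3a2 encodes the heavy chain shared by the heteromeric transporters. Its level was 233.84, 229.76 and 259.45 FPKM in LLC alone and 106, 100.84 and 100.2 FPKM in LLC with BMSCs. All libraries with BMSCs lay below all libraries without, and the mean went from 241 ± 16.1 to 102 ± 3.18 FPKM (SD, n = 3 libraries per group). The log2 fold change was -1.25 with a standard error of 0.070 (95% interval -1.42 to -1.09, adjusted p = 5.2e-06 by edgeR). Most of the signal was assigned to 1 transcript, NM_008577, at 233 ± 16.2 FPKM in LLC alone and 97.1 ± 2.60 FPKM with BMSCs. The second transcript, NM_001161413, stood at 7.98 ± 0.101 and 5.24 ± 0.876 FPKM. The gene's estimated counts were not whole in 5 of 6 libraries, so that some of its fragments were divided between genes or features, and no gene was found whose counts made up the difference.

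Slc7a5, the light chain known for uptake of leucine and other large neutral amino acids, was the most abundant partner of Slc3a2. It was measured at 207.16, 208.38 and 188.33 FPKM in LLC alone and at 123.32, 115.43 and 116.53 FPKM in LLC with BMSCs. The groups were clearly apart, with means of 201 ± 11.2 and 118 ± 4.27 FPKM, and a log2 fold change of -0.79 (SE 0.064, 95% interval -0.93 to -0.64, adjusted p = 3.3e-05 by edgeR). The ratio of Slc3a2 to Slc7a5 went from 1.20 ± 0.152 to 0.864 ± 0.00802. The ratios of the libraries did not overlap (exact two-sided permutation p = 0.1 over 3 against 3 libraries, the smallest such a design can give).

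Slc7a6, a light chain that exchanges arginine and lysine for neutral amino acids with sodium, was not called. Its level was 23.08, 23.59 and 22.17 FPKM in LLC alone and 25.02, 25.11 and 25.54 FPKM in LLC with BMSCs, so that the libraries with BMSCs were the higher ones. The log2 fold change was 0.10 (SE 0.052, 95% interval -0.03 to 0.22, adjusted p = 0.143 by edgeR), which did not pass the threshold. On the log2(FPKM + 1) scale limma gave 0.13 with an adjusted p of 0.0445, and over the alternatives the adjusted p was between 0.0438 and 0.757. A transcript assembled by the authors' pipeline held 3.27 ± 0.233 and 2.87 ± 0.215 FPKM of the gene, and NM_178798 held 19.7 ± 0.947 and 22.4 ± 0.110 FPKM.

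Slc7a7, a further light chain that exports cationic amino acids, was near 1 FPKM. Its values were 1.01, 0.91 and 1 FPKM in LLC alone and 0.84, 0.67 and 0.61 FPKM in LLC with BMSCs. The libraries with BMSCs lay lower, with a log2 fold change of -0.52 (SE 0.159, 95% interval -0.89 to -0.16, adjusted p = 0.0209 by edgeR). Over all 14 alternatives the adjusted p, by edgeR or DESeq2, was 0.00925 to 0.0901. The call was lost with close replicate pairs summed and without LLC alone replicate 1 or LLC with BMSCs replicate 2 or 3. It is also uncertain since Slc7a7 and Oxa1l lie on opposite strands of chromosome 14 and share 232 exon bases in the GENCODE annotation of GRCm38. In 6 of 6 libraries the estimated counts of Slc7a7 were not whole and summed to a whole number with those of Oxa1l, of which Slc7a7 took 3.65% to 4.91%. Whether counting used the strand is not given in the sources used here, and Oxa1l, a mitochondrial insertase gene, had a log2 fold change of -0.23 (SE 0.073, adjusted p = 0.0275 by edgeR).

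Slc7a8, a light chain for small and large neutral amino acids, was barely detected. It had 8, 4 and 5 estimated fragments in LLC alone and 17, 18 and 24 in LLC with BMSCs, or 0.04, 0.03 and 0.03 against 0.1, 0.1 and 0.14 FPKM. The counts did not overlap, and the log2 fold change was 1.68 (SE 0.306, 95% interval 0.97 to 2.39, adjusted p = 0.00196 by edgeR). Under the filter used, the gene had to be higher with BMSCs to be tested. Over the alternatives the adjusted p, by edgeR or DESeq2, was 0.00178 to 0.00972. With no filter on low counts the log2 fold change of Slc7a8 was 1.69 (SE 0.333, adjusted p = 0.00303 by edgeR). It rose beside the markers of fibroblasts and neutrophils given above, whose part in this value was not tested.

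Slc3a2 was set against the sum of its light chains, Slc7a5, Slc7a6, Slc7a7, Slc7a8, Slc7a10 and the cystine carrier Slc7a11, as a measure of balance between partners in transcripts, not in protein. In LLC alone, Slc3a2 stood at 0.975, 0.950 and 1.19 times the summed FPKM of the light chains, and in LLC with BMSCs at 0.672, 0.673 and 0.662 times. The mean ratio was 1.04 ± 0.133 in LLC alone and 0.669 ± 0.00629 with BMSCs, and LLC alone replicate 3 was the high one of its group. The light chain sum itself went from 233 ± 13.4 to 153 ± 4.20 FPKM. Both separations reached the smallest exact permutation p of 0.1 over 3 against 3 libraries, as did the other 8 of the 10 sums, shares and ratios computed.

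The makeup of the light chains differed between the groups. Slc7a5 made up 86.3% ± 0.169 of the light chain FPKM in LLC alone and 77.4% ± 0.678 with BMSCs. Slc7a6 went from 9.85% ± 0.294 to 16.5% ± 0.553. Slc7a11, which pairs with Slc3a2 to import cystine, made up 3.37% ± 0.471 and 5.55% ± 0.179, although its own level did not pass the test (8.62, 8.92 and 6.16 FPKM against 8.42, 8.45 and 8.56 FPKM, log2 fold change 0.08, adjusted p = 0.597 by edgeR). The shares of these 3 genes did not overlap between the groups.

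**Figure D2:**
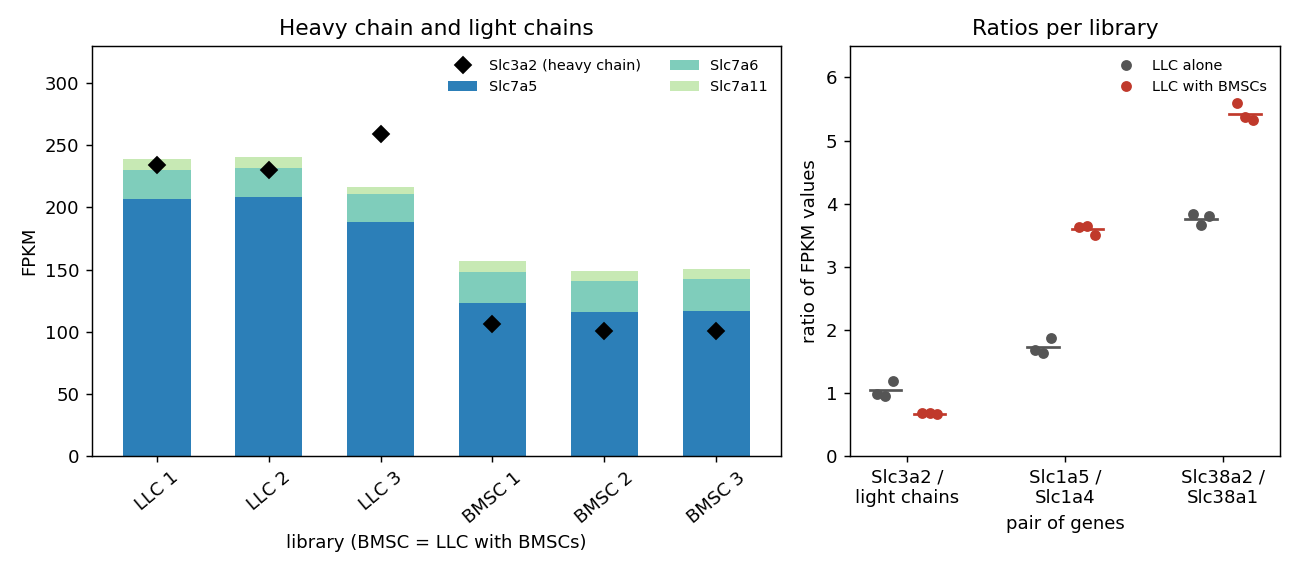
Left, FPKM of the light chains Slc7a5, Slc7a6 and Slc7a11 as stacked bars and of the heavy chain Slc3a2 as diamonds in each library (LLC, LLC alone, and BMSC, LLC with BMSCs, without the scarce Slc7a7 and Slc7a8). Right, ratios of FPKM per library with group means as lines. On the left, the diamonds lie below the top of the bars by a wide margin in each library with BMSCs. They lie just below it in LLC alone replicates 1 and 2 (ratios of 0.975 and 0.950) and above it in replicate 3 (1.19). On the right, the ratios of Slc1a5 to Slc1a4 and of Slc38a2 to Slc38a1 are higher in LLC with BMSCs.

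Slc7a1, which carries arginine, lysine and ornithine without a heavy chain, was among the genes that fell most. It was measured at 82.68, 84.39 and 61.91 FPKM in LLC alone and at 39.77, 34.74 and 35.14 FPKM in LLC with BMSCs. LLC alone replicate 3 was the low library of its group and still lay above all libraries with BMSCs. The means were 76.3 ± 12.5 and 36.6 ± 2.80 FPKM, and the log2 fold change was -1.08 (SE 0.125, 95% interval -1.37 to -0.79, adjusted p = 0.000206 by edgeR). Without LLC alone replicate 3 it was -1.21 (SE 0.063). The estimate for the transcripts of that library differed from the rest: NM_001301424 was given 32.08 FPKM there, 1.99 and 0 FPKM in replicates 1 and 2, and 0 FPKM in each library with BMSCs. NM_007513 was given 29.83 FPKM there and 80.69 and 84.39 FPKM in replicates 1 and 2. The files give these transcripts similar lengths, 7079 and 7195 bases, and only the gene level was compared.

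Counts also followed transcript length differently between libraries, most of all in LLC alone replicate 3. The tested genes were divided into 5 equal bins by length. In the bin of the longest genes its log2 counts lay a median of -0.37 from the mean of the 6 libraries, and in the bin of the shortest 0.32 above it, while LLC alone replicates 1 and 2 were within 0.06 of the mean in each bin. The libraries with BMSCs ran the opposite way, at -0.19, -0.09 and -0.11 in the bin of the shortest genes and 0.18, 0.10 and 0.13 in that of the longest, so that the trend differed between the groups as well. Slc7a1, with 7185 bases, and Slc38a1, with 7364 bases, are among the long genes, and both were lowest in that library of their group. With the trend over length removed from each library, Slc7a1 changed by -1.34, Slc38a1 by -1.01 and Slc38a2 by -0.36. The heavy chain Slc3a2 (2582 bases) changed by -1.22 and Slc1a4 (3926 bases) by -1.38 in that setting. There, the light chains Slc7a5 (3513 bases) and Slc7a6 (3976 bases) changed by -0.83 and 0.01. The sums, shares and ratios of FPKM were not computed with the trend removed, so its part in them was not tested.

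Slc1a4, the carrier of alanine, serine, cysteine and threonine, had the lowest log2 fold change of the 10 genes. Its level was 44.1, 45.76 and 40.4 FPKM in LLC alone and 18.02, 17.49 and 18.01 FPKM in LLC with BMSCs. The groups were well apart, at 43.4 ± 2.74 and 17.8 ± 0.303 FPKM, and the log2 fold change was -1.30 (SE 0.064, 95% interval -1.45 to -1.16, adjusted p = 2.8e-06 by edgeR). Its interval overlapped those of Slc3a2 and Slc7a1, so that the order of these falls was not resolved.

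Slc1a5, a related exchanger known for glutamine uptake, changed little. It was measured at 74.31, 75 and 75.4 FPKM in LLC alone and at 65.44, 63.75 and 63.17 FPKM in LLC with BMSCs. The spread within each group was small, so that the groups did not overlap and the log2 fold change of -0.24 (SE 0.052, 95% interval -0.37 to -0.12) passed the test, with an adjusted p of 0.00422 by edgeR. With close replicate pairs summed it was 0.0900 by edgeR, and over the alternatives, which include DESeq2 and limma, 4.0e-05 to 0.0900. As the fall of Slc1a4 was larger, the ratio of Slc1a5 to Slc1a4 went from 1.73 ± 0.120 to 3.60 ± 0.0758, with no overlap between the libraries.

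Slc38a1, a sodium-coupled carrier of glutamine and other neutral amino acids, was measured at 28.02, 28.79 and 24.05 FPKM in LLC alone and at 16.09, 16.32 and 16.4 FPKM in LLC with BMSCs. The libraries were apart, with means of 26.95 ± 2.54 and 16.3 ± 0.161 FPKM and a log2 fold change of -0.74 (SE 0.077, 95% interval -0.92 to -0.56, adjusted p = 0.000122 by edgeR). Each of its 3 transcripts had a lower mean with BMSCs, with NM_001166458 going from 2.51 ± 0.207 to 1.63 ± 0.122 FPKM. NM_001166456 went from 14.4 ± 0.216 to 7.29 ± 0.275 FPKM, while NM_134086 stood at 10.93, 11.96 and 7.39 FPKM in LLC alone, the last within the 7.18 to 7.52 FPKM of the libraries with BMSCs. The reads that transcripts share are divided by estimate, so that this split was not tested.

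Slc38a2, the system A carrier induced when amino acids are scarce, was the third most abundant of the 10 genes in both groups. It was measured at 107.25, 105.26 and 91.33 FPKM in LLC alone and at 90.01, 87.61 and 87.25 FPKM in LLC with BMSCs. The lowest library of LLC alone, replicate 3, lay just above the highest with BMSCs. The log2 fold change was -0.22 (SE 0.072, 95% interval -0.38 to -0.05, adjusted p = 0.0289 by edgeR), and this call was the least stable: it was lost in 6 of 16 alternatives, over which the adjusted p ran from 2.4e-05 to 0.24. Those were the summing of close replicate pairs and the omission of any 1 library other than LLC alone replicate 3. Its ratio to Slc38a1 went from 3.76 ± 0.0916 to 5.43 ± 0.146, without overlap.

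**Figure D3:**
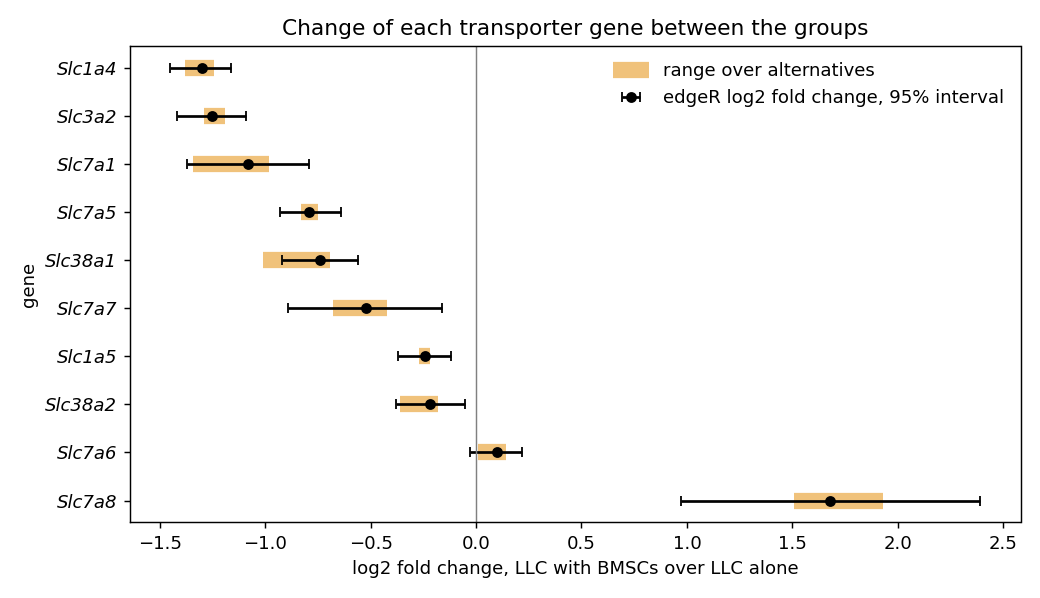
log2 fold change of each transporter gene, LLC with BMSCs over LLC alone, from edgeR (points) with 95% intervals (bars), and the range of the value over the alternative settings (orange bands). The intervals of Slc1a4, Slc3a2 and Slc7a1 lie furthest below 0, those of Slc1a5 and Slc38a2 close to it, that of Slc7a6 across it, and that of Slc7a8 above it.

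The order of the levels differed between the groups. In LLC alone it ran, from the highest mean FPKM, Slc3a2, Slc7a5, Slc38a2, Slc7a1, Slc1a5, Slc1a4, Slc38a1, Slc7a6, Slc7a7 and Slc7a8, with Slc7a1 and Slc1a5 overlapping between libraries. In LLC with BMSCs it ran Slc7a5, Slc3a2, Slc38a2, Slc1a5, Slc7a1, Slc7a6, Slc1a4, Slc38a1, Slc7a7 and Slc7a8, with no overlap between neighbours. Slc7a5 thus stood above its heavy chain only in LLC with BMSCs, and Slc7a6 above Slc1a4 and Slc38a1. The 10 genes summed to 789 ± 21.7 FPKM in LLC alone and 470 ± 12.8 FPKM with BMSCs, a log2 difference of -0.75. The sum rests largely on Slc3a2 and Slc7a5, with mean shares of 30.6% and 25.5% in LLC alone and 21.8% and 25.2% with BMSCs.

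Genes of the same families and of amino acid sensing were counted from 7 lists, of which some genes were not tested because of low counts. Over all tested genes 31.5% were called higher and 31.3% lower, or 62.9% in either direction, and the counts of the lists are read against these shares. Of the other SLC7 and SLC3 genes, 5 were tested, 2 were called higher and none lower, with a median log2 fold change of 0.26, and Slc7a2 passed the filter on low counts only through the libraries with BMSCs. Of the other SLC38 genes, 5 were tested, with 3 higher and 1 lower and a median of 0.44. Of 15 tested lysosomal and mitochondrial carriers, 2 were higher and 5 (33.3%) lower, near the share of all genes, with a median of -0.10. That list also holds Slc1a5, a transporter gene described above, which is counted among its lower genes. Slc38a9, called higher, is counted in it and among the other SLC38 genes. Slc36a1, not called, is in it and in the list of other plasma membrane families. Sesn2, called lower, is counted in the lists of sensing genes and of ATF4 genes given below. Of 7 tested carriers of other plasma membrane families 1 was higher and 3 lower, also with a median of -0.10, and the higher gene, Slc16a10, again passed the filter only through the libraries with BMSCs. The 3 tested other SLC1 genes, Slc1a1, Slc1a3 and Slc1a7, were under 1 FPKM, and all were called lower. They passed the filter only through LLC alone and so had to be lower to be tested. Slc1a1 had 147, 114 and 150 estimated counts in LLC alone and 2, 1 and 1 in LLC with BMSCs. It was at least 48.95-fold lower against a floor of 3 counts per library.

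Slc7a2, a cationic carrier like Slc7a1, was listed at 0 in LLC alone and at 0.58, 0.67 and 0.61 FPKM in LLC with BMSCs, and was at least 63.7-fold higher against a floor of 3 counts per library. Slc7a3, of the same group, went from 1.27 ± 0.0964 to 1.69 ± 0.0351 FPKM (log2 fold change 0.55). Both stood far below Slc7a1 in level. Slc38a7, a lysosomal glutamine carrier, fell from 23.6 ± 0.431 to 8.94 ± 0.591 FPKM (log2 fold change -1.40), whereas Slc38a6 rose from 52.7 ± 4.71 to 72.6 ± 2.30 FPKM (0.53) and the lysosomal arginine sensor Slc38a9 from 1.97 ± 0.213 to 2.48 ± 0.0702 FPKM (0.55). The glycine carrier Slc6a9 fell from 39.5 ± 1.32 to 14.4 ± 0.400 FPKM (log2 fold change -1.48). Slc43a3 changed by -0.26, and the leucine and phenylalanine carrier Slc43a2 by 0.32, which did not pass (adjusted p = 0.0693 by edgeR). Slc36a1, a proton-coupled carrier, stood at 4.37 ± 0.442 and 4.14 ± 0.202 FPKM (-0.10, adjusted p = 0.349 by edgeR). Slc3a1 and Slc43a1 were at or below 0.12 FPKM in every library and were not tested, and Slc1a3, a glutamate carrier, was at 0.18, 0.12 and 0.13 FPKM in LLC alone and 0.03, 0.01 and 0.02 FPKM with BMSCs (log2 fold change -2.79).

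Among the lysosomal and mitochondrial carriers, the cystine exporter Ctns (5.81 ± 0.194 and 3.87 ± 0.248 FPKM), the branched-chain amino acid carrier Slc25a44 (20.2 ± 0.555 and 13.5 ± 0.990 FPKM) and Slc25a29 (2.61 ± 0.319 and 1.81 ± 0.3002 FPKM) changed by -0.61, -0.60 and -0.56 on the log2 scale. The 95% interval of Slc7a5 overlapped theirs, and no difference from the transporters was tested.

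The sensing genes upstream of mTORC1 split in direction, with 7 of 29 called higher and 14 (48.3%) lower and a median of -0.20. In either direction 72.4% of them were called, against 62.9% of all tested genes. Mtor itself went from 13.7 ± 1.09 to 15.8 ± 0.326 FPKM (log2 fold change 0.42, adjusted p = 0.0258 by edgeR). Sesn2, a leucine sensor and ATF4 target, fell from 49.1 ± 4.20 to 20.9 ± 2.03 FPKM (-1.25), and Lamtor4, a subunit of the lysosomal Ragulator complex, from 22.1 ± 3.67 to 9.93 ± 0.276 FPKM (-1.18). Gatsl2, of the family of arginine sensors, rose from 2.48 ± 0.798 to 6.57 ± 0.820 FPKM (1.39).

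Genes of the response through the kinase GCN2 and ATF4 were mostly lower. Of 20 tested, 17 were called lower (85.0%, against 31.3% of all tested genes), 2 higher and 1 was not called, with a median of -1.01. Ddit3, a stress transcription factor, was measured at 243.89, 243.77 and 293.91 FPKM in LLC alone and at 29.79, 30.91 and 31.76 FPKM with BMSCs, and Atf3 and Chac1 fell similarly (log2 fold changes -3.10, -3.15 and -2.89). Atf4 fell from 640 ± 62.4 to 396 ± 11.6 FPKM (-0.71) and the asparagine synthetase Asns from 242 ± 8.45 to 135 ± 3.54 FPKM (-0.87). The 2 higher genes, named after their values were seen, were Eif2ak4, which encodes GCN2 and went from 5.57, 6.44 and 4.72 to 8.70, 8.86 and 8.72 FPKM, and Vldlr, a lipoprotein receptor at or below 0.29 FPKM in every library, which passed the filter only through the libraries with BMSCs. ATF4 itself is regulated mainly in translation, so that its transcript level does not measure its protein.

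**Figure D4:**
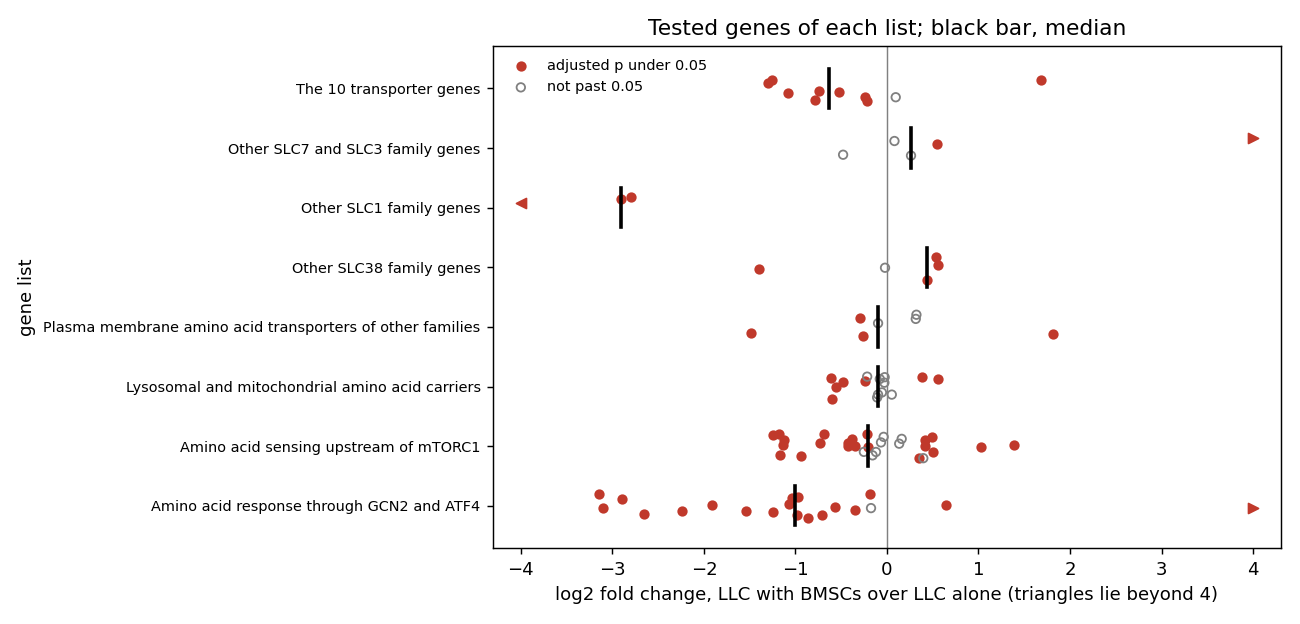
log2 fold change (LLC with BMSCs over LLC alone) of each tested gene in the 10 transporter genes and in 7 lists, with filled red points for an adjusted p under 0.05, open points otherwise, black bars at the medians, and triangles for genes beyond 4. The transporters and the GCN2 and ATF4 genes lie mostly below 0, and the other SLC7, SLC3 and SLC38 genes mostly do not.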

How the data were processed

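Gene expression was measured in 6 libraries, 3 per group, with groups and numbers taken from the sample labels. The authors deposited estimated counts and FPKM values per gene and per transcript. Estimated counts are fragments divided among features, and 21.9% to 23.2% of genes per library were not whole. FPKM values are scaled by length and library total. The submitters' processing notes name HISAT, StringTie, Cufflinks and GATK and the build mm8, with no order or role. The paper describes BGISEQ-500 libraries and the labels Illumina protocols.

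Estimated counts were rounded and fitted in edgeR 4.0.16 (R 4.3.3, TMM, default filter on low counts, quasi-likelihood test), without a replicate block. The standard error of a log2 fold change was taken as its size over the square root of the F statistic. Sums and ratios of FPKM were compared by exact two-sided permutation tests. Alternatives used DESeq2 1.42.0, limma 3.58.1 on log2(FPKM + 1) and log2(FPKM + 0.1), other scalings, filters and thresholds, removal of the length trend, close replicate pairs summed, and libraries left out.

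The transporter genes and lists were chosen with earlier results of these data known. Named list genes were 15 fixed names and the 3 largest changes per list among called genes without overlap that averaged 100 normalized counts or more. A floor of 3 counts covers counting error only.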

Additional observations from a re-analysis of the deposited data

How the results depend on the processing

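No transporter gene changed sign under any of the alternatives run for it. Slc3a2, Slc7a5, Slc7a8, Slc7a1, Slc1a4 and Slc38a1 kept their calls wherever they were tested. Slc38a2 lost its call in 6 of 16 alternatives, Slc7a7 in 4 of 14 and Slc1a5 in 1 of 16, and Slc7a6 gained one in 2 with limma. With close replicate pairs summed, 5 transporter genes were called lower. Each group then held fewer samples, and why calls were lost was not tested. With at least 10 counts in every library, or without Slc7a8 and Slc7a7, 0 were called higher, since Slc7a8 is then not among the genes counted. An adjusted p under 0.001 with a log2 fold change of at least 1 left 3 of the genes lower and 0 higher, and 723 genes lower and 910 higher in all. Leaving out one library gave 6 to 8 transporter genes lower and 1 to 1 higher, 3581 to 4539 genes lower and 3617 to 4736 higher, a log2 difference of -0.69 to -0.52 for the ratio of Slc3a2 to its light chains and of -0.77 to -0.74 for the summed FPKM.

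With the replicate number as a block, 8 transporter genes were called lower and 1 higher, and 4058 and 4161 genes in all. The block changed no call of these genes. Deviations of same-numbered libraries correlated at 0.076, -0.106 and 0.057, not every library correlated best with its own number, and the numbers were not treated as pairs. LLC alone replicates 1 and 2, and LLC with BMSCs replicates 2 and 3, were closer to each other than other pairs, at a mean chi-square per gene of 4.61 and 2.94 against 18.1 to 57.2. At this depth, values of Slc7a8 rest on 4 to 24 fragments.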
